A study of Homo sapiens with 6 samples.

Results

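The nuclear genes that copy and repair mitochondrial DNA (mtDNA) and that cut, modify, stabilise and degrade mitochondrial RNA were examined in SH-SY5Y cells, a human neuroblastoma line, by PRO-seq. PRO-seq sequences the RNA made by RNA polymerases that are engaged on the template, so it reads transcription rather than the amount of RNA. The set holds 41 genes chosen by name, out of 67051 gene identifiers in the count tables. All 41 were found, and 33 had enough counts to be tested among 23133 tested genes. None of the 33 passed the test at either time in the fit by group, whereas of the 33 tested mtDNA-encoded genes, whose DNA and RNA these products act on, 15 were called lower at 0.5 h and 14 at 24 h. The median log2 fold change of the mtDNA-encoded genes was -2.27 at 0.5 h and -2.11 at 24 h. For the 33 members it was 0.05 at 0.5 h and -0.10 at 24 h. With the replicate number as a term of the fit, TBRG4 alone of the members passed at 24 h (edgeR, adjusted p = 0.0475).

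The labels give 3 groups of 2 libraries from this 1 cell line: untreated control cells, cells given 0.1 mM MPP+ for 0.5 h, and cells given 0.1 mM MPP+ for 24 h. MPP+ is a neurotoxin that enters dopamine neurons and blocks respiratory complex I, and it is used to model Parkinson's disease in cells. The series title raises the question of whether it inhibits mitochondrial transcription. Nothing in the labels ties the 2 replicates of a group to separate cultures. The p-values therefore measure the spread among libraries, and that spread could be purely technical.

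Mitochondria keep a small circular genome of their own, but every protein that replicates it and every enzyme that matures its RNA is encoded in the nucleus and imported. The polymerase, helicase and single-strand binding protein copy the circle, and a pair of kinases supply deoxynucleotides inside the organelle. The long transcripts of both strands are then cut at the tRNAs, given poly(A) tails, modified and, in the end, degraded. Loss of many of these genes causes inherited mitochondrial disease, often with an affected nervous system. All the members are read by RNA polymerase II in the nucleus.

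Assigned counts per library ran from 5983066 to 11707612. The 41 members together held 0.2035% and 0.2130% of the counts in the control libraries, 0.208% and 0.2197% at 0.5 h, and 0.1977% and 0.2029% at 24 h. The group means were 0.208% ± 0.00670 (SD, n = 2) in control cells, 0.214% ± 0.00790 at 0.5 h and 0.200% ± 0.00364 at 24 h, a share that was not tested. The control and 0.5 h libraries overlapped, while both 24 h libraries lay below the other 4, the nearest by a small margin. The mtDNA-encoded genes held 0.144% and 0.148% of the counts in control cells and between 0.0274% and 0.0370% in the treated libraries. Of the 9 markers listed for noradrenergic neuroblastoma cells, 8 were read in every library at 18.6 CPM (counts scaled to the library total) or more, and TH, which encodes tyrosine hydroxylase, was near 0 at 0.234 to 1.62 CPM. The 9 markers listed for other cells summed to between 168 and 222 CPM per library, mostly from the epithelial gene EPCAM, against 2694 to 3677 CPM for the noradrenergic list.

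Members not tested numbered 8. Of these, 6 are listed at 0 in every library: MGME1, a nuclease that trims mtDNA ends, RNASEH1, which removes RNA from RNA-DNA hybrids, FASTKD3 and FASTKD5 of the FASTK family of RNA-binding proteins, MRM2, which methylates mitochondrial rRNA, and TRMT5, which methylates tRNA. PRORP, the nuclease subunit of mitochondrial RNase P, had 22 counts over the 6 libraries, and REXO2, which degrades very short RNAs, had 56. Genes that every cell uses are listed at 0 as well: SDHA, EIF4A1, PSMA3 and MRPL2, chosen after their values were seen, had 0 counts in all 6 libraries. A listed 0 is therefore not read here as absence of transcription. In GENCODE 29, 5 of the 6 members listed at 0 share some exonic sequence with another gene, and MRM2 shares none. Of the 41 members, 21 share some, and those 5 are 23.8% of them, beside 1 of the 20 (5.0%) that share none. Most members carry another identifier version in the counts than in GENCODE 29, so overlaps in the release used for counting may differ. Of all 19855 protein-coding genes compared, 12.8% are listed at 0, with 10.5% among those that share no exonic sequence, 14.5% among those that share some but under 90%, as those 5 members do, and 34.7% among those that share at least 90%, which no member does. No source used here gives the settings of the counting, and the part of overlap in these zeros was not tested.

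The members lie on 19 chromosomes. In GENCODE 29 (GRCh38, the build hg38 of the count tables), 11 of the 41, or 26.8%, start within 1000 bases of a protein-coding gene that runs the other way, compared with 13.0% of all protein-coding genes. Thus TWNK starts 148 bases from MRPL43, a mitochondrial ribosomal protein gene, and SLIRP starts 51 bases from ALKBH1, a demethylase that also acts on mitochondrial tRNA. These neighbours had log2 fold changes at 24 h of -0.06 ± 0.23 (SE) for MRPL43 and -0.06 ± 0.12 for ALKBH1, beside -0.23 ± 0.14 for TWNK and 0.08 ± 0.12 for SLIRP. None of these values passed the test. Whether strand was used in counting is not given, so reads of a member and of a gene on the other strand may not be separated where they overlap. Among tested members the largest shared part of exonic sequence was 34.9%, for MRM3. It was 33.1% for MTPAP and 30.5% for LIG3, whose partners on the other strand are RFFL and CCT6B. The log2 fold changes of CCT6B were 0.17 ± 0.10 at 0.5 h and -0.04 ± 0.10 at 24 h. Those of LIG3 were -0.21 ± 0.10 and -0.28 ± 0.11, and neither gene passed the test.

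RefSeq promoter windows (GRCh38.p14, 250 bases before to 50 bases after a start) were matched for 34 of the 41 members. Exact letters of motifs known from promoters of mitochondrial genes were searched on both strands. They were GCATGCGC for NRF1 (nuclear respiratory factor 1), also searched with GC added at its 5′ end as a longer palindrome of 10 letters, CCGGAAGT for the ETS family that includes GABPA, AAGATGGC for YY1 and TGACGTCA, the cyclic AMP response element. Windows are given for TBRG4 and LIG3, which had the smallest p at 24 h and held no match, and for EXOG, MTPAP and TRMU, which held matches. Capitals mark the matched letters, and in EXOG the 10-letter NRF1 match lies inside a longer run with a further inner match.
TBRG4: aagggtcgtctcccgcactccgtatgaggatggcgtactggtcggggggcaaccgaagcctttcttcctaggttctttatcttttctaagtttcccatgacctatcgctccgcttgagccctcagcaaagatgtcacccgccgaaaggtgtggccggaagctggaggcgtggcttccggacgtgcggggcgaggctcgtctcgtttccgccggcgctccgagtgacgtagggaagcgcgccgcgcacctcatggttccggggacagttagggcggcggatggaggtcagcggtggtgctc
LIG3: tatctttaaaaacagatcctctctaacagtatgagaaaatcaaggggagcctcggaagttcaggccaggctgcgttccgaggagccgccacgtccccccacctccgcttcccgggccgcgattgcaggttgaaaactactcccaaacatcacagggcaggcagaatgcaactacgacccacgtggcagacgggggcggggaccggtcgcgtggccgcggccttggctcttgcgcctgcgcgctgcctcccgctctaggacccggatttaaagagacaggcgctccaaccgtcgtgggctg
EXOG: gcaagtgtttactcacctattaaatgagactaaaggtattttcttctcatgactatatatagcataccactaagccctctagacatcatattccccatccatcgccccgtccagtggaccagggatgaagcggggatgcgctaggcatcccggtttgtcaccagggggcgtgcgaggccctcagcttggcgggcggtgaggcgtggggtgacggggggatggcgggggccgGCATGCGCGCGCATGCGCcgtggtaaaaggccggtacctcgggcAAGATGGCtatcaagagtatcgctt
MTPAP: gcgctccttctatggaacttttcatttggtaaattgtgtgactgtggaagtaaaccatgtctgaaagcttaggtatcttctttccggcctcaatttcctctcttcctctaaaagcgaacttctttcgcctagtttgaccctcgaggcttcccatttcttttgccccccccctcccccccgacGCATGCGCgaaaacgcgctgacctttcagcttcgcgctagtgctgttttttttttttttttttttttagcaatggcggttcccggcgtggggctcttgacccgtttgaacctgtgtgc
TRMU: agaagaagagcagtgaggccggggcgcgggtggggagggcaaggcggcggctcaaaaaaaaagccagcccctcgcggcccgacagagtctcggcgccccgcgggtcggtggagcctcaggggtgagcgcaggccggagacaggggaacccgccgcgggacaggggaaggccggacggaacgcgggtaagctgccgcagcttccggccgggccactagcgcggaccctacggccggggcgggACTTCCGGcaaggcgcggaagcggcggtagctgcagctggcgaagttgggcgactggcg

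These windows are chr7:45111648-45111947 on the minus strand for TBRG4, chr17:34980262-34980561 on the plus strand for LIG3, chr3:38496090-38496389 on the plus strand for EXOG, chr10:30349229-30349528 on the minus strand for MTPAP and chr22:46335464-46335763 on the plus strand for TRMU. The ETS letters were found in 5 of the 34 members (ELAC2, MRM2, SSBP1, TRMT10C and TRMU), or 14.7%, beside 4.95% of the 27305 genes of the promoter table. The YY1 letters were found in 6 (EXOG, FASTK, HSD17B10, MGME1, SLIRP and SSBP1), or 17.6%, beside 3.52%. The inner NRF1 letters were found in 3 (EXOG, MRM1 and MTPAP), or 8.82%, beside 3.68%, and the full 10 letters in EXOG alone, or 2.94%, beside 1.52%. The cyclic AMP letters were found in MGME1 and MRM3, or 5.88%, beside 2.25%. The promoter table also holds noncoding genes, so these shares are descriptions and a match is not a bound site. The 11 tested members with any match had a median log2 fold change of -0.02 at 24 h, and the 16 tested members with a window but no match had -0.11, a difference that was not tested.

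After 0.5 h of MPP+ no member passed the test (edgeR quasi-likelihood, adjusted p = 1.0 for each member), and over all tested genes 0.0735% were called lower and 0% higher. The members' log2 fold changes ran from -0.21 for LIG3 to 0.27 for HSD17B10, with 26 of 33 above 0 and 7 below (21.2%, beside 47.9% of all tested genes). The count below 0 was 11 of 33 under upper quartile scaling. Of the 34 members tested with 1 library left out, it was 12 without either control library and 11 without either 0.5 h library. The share of all tested genes below 0 was not counted in these fits. At an unadjusted p under 0.05 there were 0 members, beside 1.05% of all tested genes higher and 1.41% lower. The number of members was 1 under upper quartile scaling, and it rose when either control library was left out. The share of all tested genes under these settings was not counted. The 95% intervals of all 33 lay within a 2-fold difference in either direction, and those of 32 within 1.5-fold, the exception being HSD17B10. Of the 33, 6 members had both 0.5 h libraries above both controls (18.2%, beside 12.9% of all tested genes) and 2 had both below (6.06%, beside 14.4%).

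After 24 h again no member passed in the fit by group, where 0.0692% of all tested genes were called lower and 0% higher. TBRG4 passed when the replicate number entered as a block (edgeR, adjusted p = 0.0475). The log2 fold changes ran from -0.29 for TBRG4 to 0.18 for FASTKD1, and 23 of 33 lay below 0 (69.7%, beside 49.6% of all tested genes). At an unadjusted p under 0.05 there were 2 members lower and 0 higher, beside 4.09% and 4.01% of all tested genes. Their number was 0 with DESeq2, and it fell when either 24 h library was left out. The share of all tested genes under these settings was not counted. In 15 members both 24 h libraries lay below both controls (45.5%, beside 18.5% of all tested genes), and in 2 both lay above (6.06%, beside 18.8%). In each of the 3 comparisons the members' median standard error was 0.12, beside 0.19 to 0.20 over all tested genes. The shares therefore compare genes that were not measured equally tightly. All 33 intervals lay within 2-fold and 31 within 1.5-fold, the exceptions being SUPV3L1 and HSD17B10.

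The direct comparison of the treated groups, 24 h against 0.5 h, called 0% of all tested genes and no member in the fit by group. TBRG4 passed here too with the replicate number as a block (edgeR, adjusted p = 0.00892). In the fit by group the median over the members was -0.15, beside 0.00 over all tested genes. Of the 33 members 28 lay below 0 (84.8%, beside 49.5%). In 18 members both 24 h libraries lay below both 0.5 h libraries (54.5%, beside 19.0%) and in 2 above (6.06%, beside 19.4%). At an unadjusted p under 0.05 there were 5 members lower, TBRG4, ELAC2, NSUN4, DGUOK and PUS1, and 0 higher, beside 3.62% and 2.80% of all tested genes. That number was 1 with DESeq2, and it fell when 0.5 h replicate 2 or either 24 h library was left out. Under upper quartile scaling 4 members were under 0.05, TBRG4 and ELAC2 lower and FASTKD1 and POLG2 higher. The share of all tested genes under these settings was not counted. All 33 intervals lay within 2-fold.

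**Figure D1:**
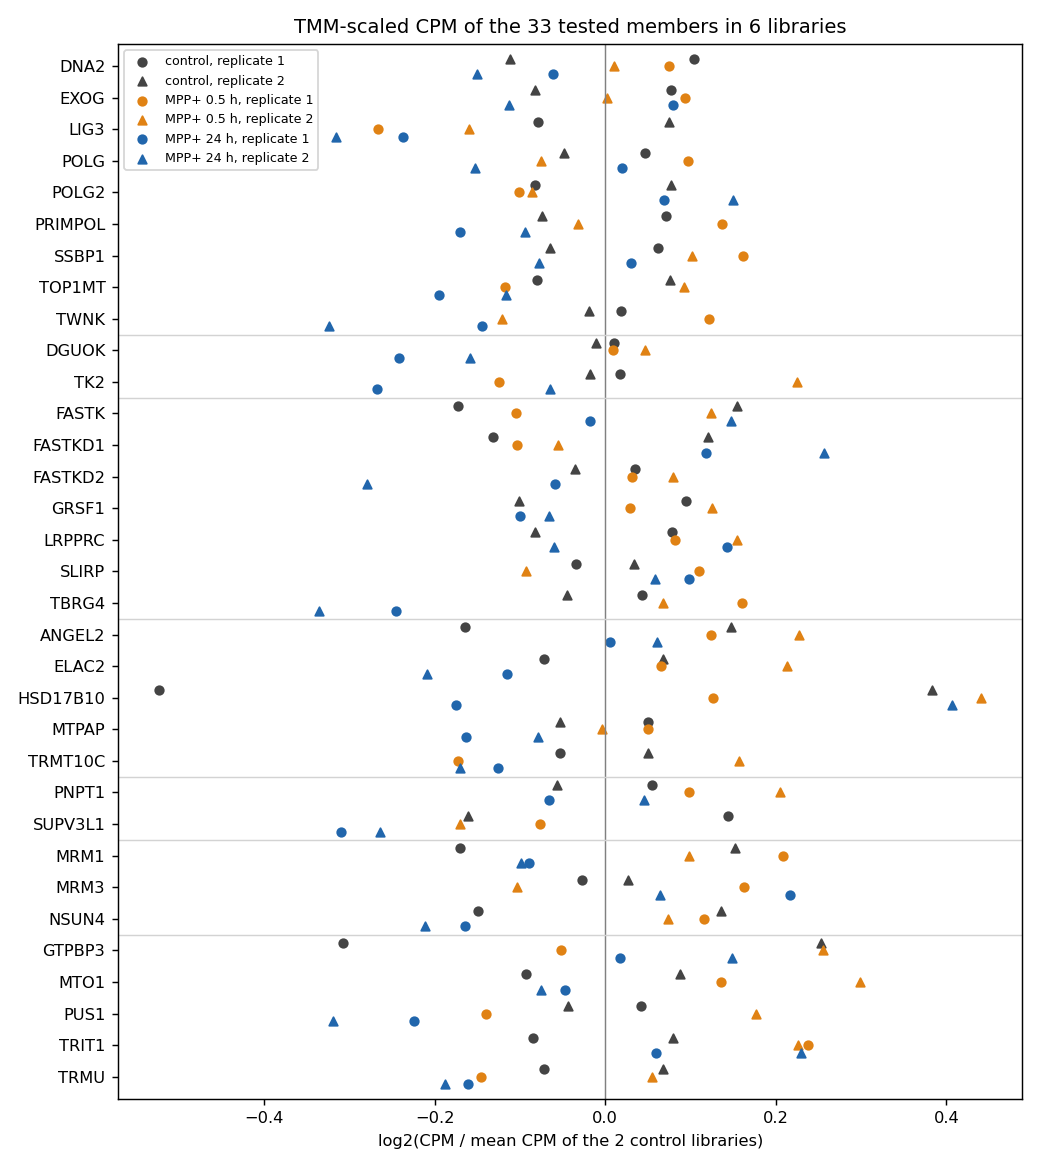
Each row is a tested member and each point a library, placed by the log2 ratio of its TMM-scaled CPM to the mean of the 2 control libraries; circles are replicate 1 and triangles replicate 2, grey lines separate roles. Most 24 h points lie left of the 0.5 h points, and the widest spread within a group is that of HSD17B10, at 7.07 and 13.3 CPM in the control libraries.

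**Figure D2:**
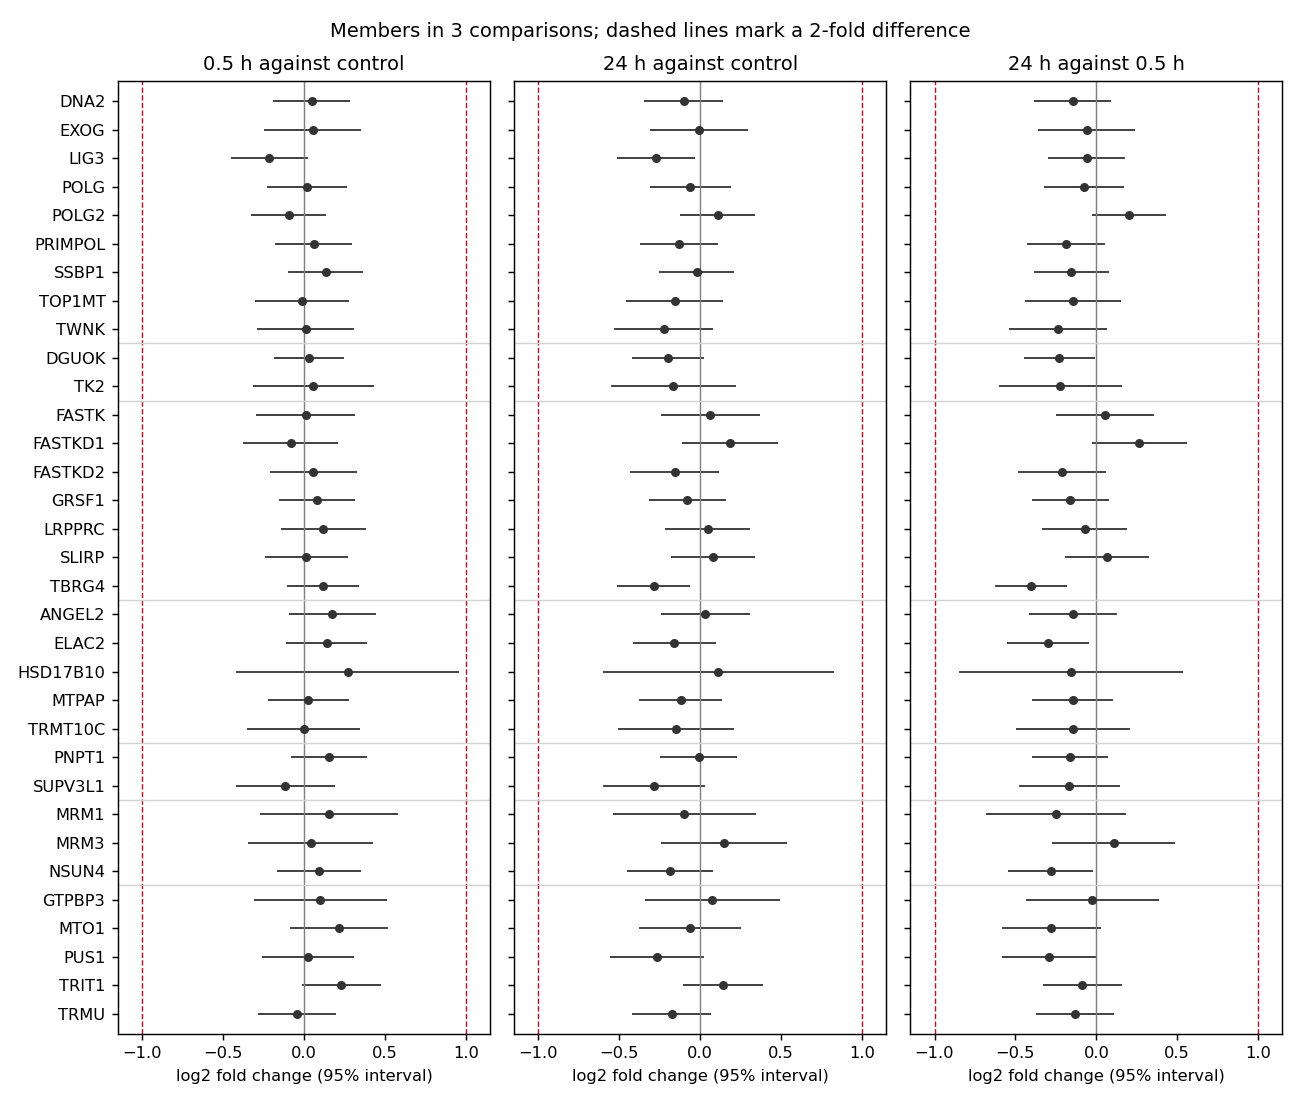
Log2 fold change of each tested member (point) with its 95% interval (line) in the 3 comparisons. No interval reaches the dashed lines at a 2-fold difference, and in the comparison of 24 h with 0.5 h the points lie mostly below 0, with TBRG4 lowest at -0.40.

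The replication enzymes of mtDNA came first by role. POLG, the catalytic subunit of the mtDNA polymerase, had 112 and 105 CPM in control cells, 116 and 103 at 0.5 h and 110 and 97.6 at 24 h, with log2 fold changes of 0.02 ± 0.11 (SE) and -0.06 ± 0.11. Its groups overlapped in all 3 comparisons. POLG2, the accessory subunit, had 58.9 and 65.8 CPM in control cells, 58.1 and 58.7 at 0.5 h and 65.4 and 69.2 at 24 h. Both 0.5 h libraries of POLG2 lay just under the lower control, and the 24 h value was 0.20 ± 0.10 above that of 0.5 h on the log2 scale (adjusted p = 0.769). The point estimates of POLG and POLG2 had opposite signs at 24 h, and their intervals overlapped.

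TWNK, the helicase that opens the mtDNA duplex, had 39.1 and 38.1 CPM in control cells, 42.0 and 35.5 at 0.5 h and 34.9 and 30.8 at 24 h. Its 24 h libraries lay below both controls and both 0.5 h libraries, at a log2 fold change of -0.23 ± 0.14 against control (adjusted p = 0.726). SSBP1, the single-strand binding protein of the same replication fork, had 142 and 130.3 CPM in control cells, 152 and 146 at 0.5 h and 139 and 129 at 24 h. For SSBP1 only the 0.5 h libraries stood apart from the controls, above them at 0.13 ± 0.10.

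LIG3 encodes the DNA ligase that seals mtDNA and also works in nuclear repair. It had 64.1 and 71.3 CPM in control cells, 56.3 and 60.6 at 0.5 h and 57.5 and 54.4 at 24 h. All 4 treated libraries lay below both controls. The log2 fold changes were -0.21 ± 0.10 at 0.5 h (adjusted p = 1.0) and -0.28 ± 0.11 at 24 h, 1.21-fold lower (adjusted p = 0.595). At 24 h its interval ran from -0.52 to -0.04.

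The other enzymes of this role spanned less. PRIMPOL, a primase and polymerase used when replication stalls, had 84.4 and 76.3 CPM in control cells and 71.4 and 75.3 at 24 h, a log2 fold change of -0.13 ± 0.11. TOP1MT, the mitochondrial topoisomerase, had -0.16 ± 0.13 at 24 h, and DNA2, a nuclease and helicase of nucleus and mitochondria, had -0.10 ± 0.11. EXOG, a mitochondrial nuclease, was the member nearest to 0 at 24 h, at -0.01 ± 0.14, with its groups overlapping throughout. Of the 9 tested members of this role 8 lay below 0 at 24 h, and their median was -0.10.

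The kinases that make deoxynucleotides inside mitochondria, DGUOK for purines and TK2 for pyrimidines, are the only members of their role. DGUOK had 62.2 and 61.3 CPM in control cells, 62.2 and 63.8 at 0.5 h and 52.2 and 55.4 at 24 h. The control and 0.5 h libraries of DGUOK lay close together and the 24 h libraries below them, at -0.20 ± 0.10 against control (adjusted p = 0.659) and -0.23 ± 0.10 against 0.5 h (adjusted p = 0.768). TK2 had 24.4 and 23.8 CPM in control cells, 22.1 and 28.2 at 0.5 h and 20.02 and 23.1 at 24 h, with -0.17 ± 0.17 at 24 h. Its 0.5 h libraries lay on either side of the controls.

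Among genes of RNA stability, TBRG4, a FASTK family protein that binds and stabilises mitochondrial mRNAs, had the smallest p of all members at 24 h. It had 117 and 110.4 CPM in control cells, 127 and 119 at 0.5 h and 96.1 and 90.3 at 24 h. Both 0.5 h libraries lay above both controls and both 24 h libraries below them, so the 3 groups did not overlap. The log2 fold change was 0.12 ± 0.10 at 0.5 h and -0.29 ± 0.10 at 24 h, 1.22-fold lower (adjusted p = 0.574). Between 24 h and 0.5 h it was -0.40 ± 0.10, 1.32-fold lower (adjusted p = 0.754). The adjusted p of this direct comparison did not pass, although its interval, from -0.63 to -0.18, did not include 0. With the replicate number as a block the call of TBRG4 changed, to an adjusted p by edgeR of 0.0475 at 24 h and 0.00892 for 24 h against 0.5 h. The labels do not say that a number marks a shared batch. Same-numbered libraries did deviate together over all tested genes, with correlations from 0.293 to 0.328, which the fit by group does not use. The gene carries the small nucleolar RNA genes SNORA5A, SNORA5B and SNORA5C within its span on the same strand, and each of these is listed at 0 in every library.

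Other FASTK family genes took other courses. FASTKD1 had 34.4 and 40.9 CPM in control cells, 35.1 and 36.2 at 0.5 h and 40.9 and 45.0 at 24 h, and it had the highest value of the members at 24 h, 0.18 ± 0.13 (adjusted p = 0.768). FASTKD2, needed for the rRNA of the large mitochondrial ribosomal subunit, had 43.6 and 41.5 CPM in control cells, 43.5 and 45.0 at 0.5 h and 40.9 and 35.1 at 24 h, or -0.16 ± 0.12. FASTK itself had 65.5 and 82.2 CPM in control cells, and all its other libraries fell between these 2 values.

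LRPPRC and SLIRP encode the partners of a complex that protects mitochondrial mRNAs from decay. LRPPRC, the member with the most counts, had 240.3 and 215 CPM in control cells, 241 and 253 at 0.5 h and 251 and 219 at 24 h, or 0.12 ± 0.12 and 0.05 ± 0.12. SLIRP had 44.3 and 46.4 CPM, then 49.0 and 42.5, then 48.6 and 47.2, or 0.01 ± 0.11 and 0.08 ± 0.12. Neither partner had an interval at 24 h that reached beyond 0.34 in size. GRSF1, which marks the RNA granules of mitochondria, had -0.08 ± 0.11 at 24 h.

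Of the enzymes that free and finish RNA ends, ELAC2 cuts behind each tRNA. It had 47.5 and 52.3 CPM in control cells, 52.2 and 57.8 at 0.5 h and 46.1 and 43.2 at 24 h. The 24 h libraries were the lowest of the 6, at -0.16 ± 0.11 against control (adjusted p = 0.767) and -0.30 ± 0.11 against 0.5 h (adjusted p = 0.764). TRMT10C, a subunit of the RNase P that cuts in front of tRNAs, had 25.6 and 27.4 CPM in control cells, 23.5 and 29.5 at 0.5 h and 24.3 and 23.5 at 24 h, or -0.15 ± 0.16.

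HSD17B10, its partner subunit and also a dehydrogenase, had 49 and 113 counts in the control libraries, or 7.07 and 13.3 CPM, then 11.1 and 13.8 and then 9.0 and 13.5 CPM. In each of the 3 groups replicate 1 was the lower library of HSD17B10, and its standard error of 0.31 at 0.5 h was the largest of the members. MTPAP, the poly(A) polymerase, had 45.5 and 42.3 CPM in control cells and 39.2 and 41.6 at 24 h, or -0.12 ± 0.11. ANGEL2, a phosphatase that acts on cyclic phosphates at RNA ends, had 110.0 and 137 CPM in control cells, 134 and 144 at 0.5 h and 124 and 129 at 24 h, or 0.17 ± 0.12 and 0.03 ± 0.12.

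SUPV3L1 and PNPT1 form the helicase and exonuclease of the complex that degrades mitochondrial RNA. SUPV3L1 had 43.3 and 35.1 CPM in control cells, 37.2 and 34.8 at 0.5 h and 31.6 and 32.6 at 24 h, or -0.28 ± 0.14 at 24 h, 1.22-fold lower (adjusted p = 0.659). PNPT1 had 61.9 and 57.3 CPM in control cells, 63.8 and 68.8 at 0.5 h and 57.0 and 61.5 at 24 h. The 24 h values of PNPT1 overlapped the controls, at -0.01 ± 0.11, and its 0.5 h values lay above them, at 0.15 ± 0.10. Against 0.5 h both had nearly the same value at 24 h, -0.17 ± 0.14 for SUPV3L1 and -0.16 ± 0.10 for PNPT1.

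The rRNA modifying genes were read at low counts apart from NSUN4, which methylates the small-subunit rRNA and takes part in ribosome assembly. NSUN4 had 54.6 and 66.5 CPM in control cells, 65.6 and 63.7 at 0.5 h and 54.0 and 52.3 at 24 h, or -0.19 ± 0.12 at 24 h (adjusted p = 0.734) and -0.28 ± 0.12 against 0.5 h. Its control libraries spanned the 0.5 h values. MRM1 and MRM3, which methylate riboses of the large-subunit rRNA, had opposite point estimates at 24 h, -0.10 ± 0.20 and 0.15 ± 0.17, with wide intervals.

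Of the tRNA modifying genes, PUS1, which makes pseudouridine, had 54.9 and 51.7 CPM in control cells, 48.3 and 60.2 at 0.5 h and 45.6 and 42.7 at 24 h, or -0.27 ± 0.13 at 24 h (adjusted p = 0.651). TRIT1, which adds an isopentenyl group next to the anticodon, had 53.7 and 60.2 CPM in control cells, 67.1 and 66.6 at 0.5 h and 59.3 and 66.7 at 24 h. The 0.5 h libraries of TRIT1 lay above both controls at 0.23 ± 0.11, 1.17-fold, the smallest p of the members at 0.5 h, and the 24 h value was 0.14 ± 0.11 with overlapping groups.

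MTO1 and GTPBP3 act together on the wobble base of several mitochondrial tRNAs, and TRMU adds sulfur to the same base. MTO1 had 27.4 and 31.1 CPM in control cells, 32.1 and 36.0 at 0.5 h and 28.3 and 27.8 at 24 h, or 0.22 ± 0.14 and -0.06 ± 0.14. GTPBP3 had 33.5 and 49.4 CPM in control cells and its treated libraries reached from 40.0 to 49.4 CPM, so all 4 lay within or at the edge of its control spread. TRMU had 95.4 and 105 CPM in control cells, 90.6 and 104 at 0.5 h and 89.7 and 88.0 at 24 h, or -0.18 ± 0.11 at 24 h (adjusted p = 0.734). The 24 h libraries of TRMU lay below the other 4.

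**Figure D3:**
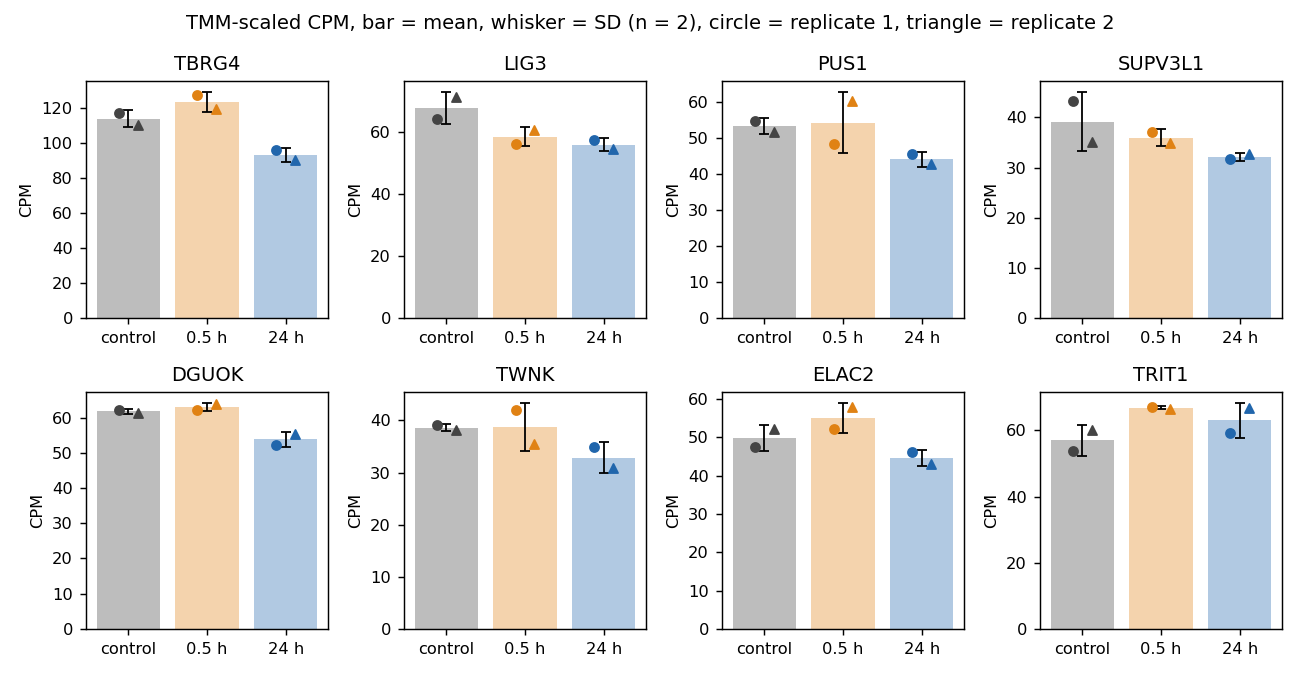
TMM-scaled CPM of 8 members by group, with bars from 0 for the mean, whiskers for the SD (n = 2) and 1 point per library. TBRG4 is lowest at 24 h with 96.1 and 90.3 CPM, LIG3 is below control at both times, and TRIT1 has its highest mean at 0.5 h, with 67.1 and 66.6 CPM.

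Genes of the same pathway outside the set were read from a list of 39, of which 35 were tested. None passed in the fit by group, and 23 of 35 lay below 0 at 24 h with a median of -0.06. Both 24 h libraries lay below both controls in 14 (40%, beside 18.5% of all tested genes) and above them in 5 (14.3%, beside 18.8%). Against 0.5 h both 24 h libraries lay below in 16 (45.7%, beside 19.0%) and above in 1 (2.86%, beside 19.4%). Lower values at 24 h were thus not particular to the members. The 4 with the smallest p against control were all lower at 24 h in point estimate. ATAD3B, a protein of the mtDNA nucleoid, had -0.49 ± 0.13 (adjusted p = 0.492), and UNG, the uracil glycosylase of nuclear and mitochondrial base excision repair, had -0.52 ± 0.14 (adjusted p = 0.508). DHX30, a helicase of mitochondrial RNA granules, had -0.26 ± 0.11, and CDK5RAP1, which modifies mitochondrial tRNAs, had -0.34 ± 0.14 (adjusted p = 0.602 each). UNG stood at 0.00 ± 0.13 at 0.5 h, and at 24 h both its libraries lay below both controls.

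The 9 genes of the mitochondrial transcription machinery were all tested and none passed. Their median was 0.06 at 0.5 h and 0.00 at 24 h. Both 24 h libraries lay below both controls in 0 of the 9 and above them in 2 (22.2%), beside 18.5% and 18.8% of all tested genes. Against 0.5 h both lay below in 3 (33.3%, beside 19.0%) and above in 0 (beside 19.4%). POLRMT, the mitochondrial RNA polymerase, had -0.24 ± 0.16 and -0.18 ± 0.16, and TFAM, which packages mtDNA and starts its transcription, had 0.12 ± 0.10 and 0.12 ± 0.10. By contrast all 33 mtDNA-encoded genes had both treated libraries below both controls at both times, with log2 fold changes from -3.98 to -1.12 at 0.5 h and from -3.51 to -1.36 at 24 h. The lowest bound of any member's 95% interval was -0.45 at 0.5 h and -0.60 at 24 h.

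**Figure D4:**
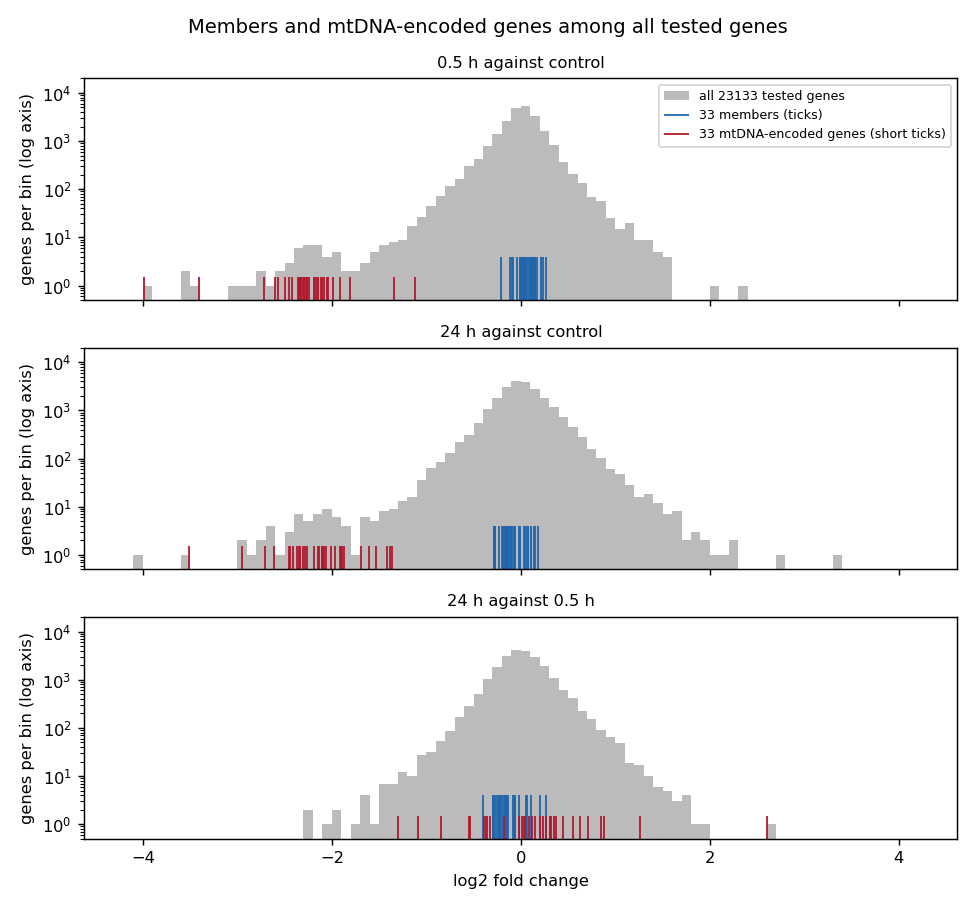
Grey bars count all 23133 tested genes by log2 fold change (bins of 0.1, log axis), tall blue ticks mark the 33 members and short red ticks the 33 mtDNA-encoded genes. The panels show 0.5 h against control, 24 h against control and 24 h against 0.5 h. In both comparisons with control the members stay between -0.29 and 0.27 while the mtDNA-encoded genes lie at or below -1.12.

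The authors' deposited tables of differential genes list 17 genes for 0.5 h and 24 for 24 h. Each of the authors' deposited tables holds 14 mtDNA-encoded genes and 0 members.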

How the data were processed

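PRO-seq was read in 6 libraries of SH-SY5Y cells. Tools named in the submitters' processing notes are cutadapt 1.16.5, Bowtie2 2.4.2, featureCounts 2.0.1 and DESeq2 2.11.40.6, with build hg38. The deposited tables of the authors hold raw counts per gene. No source used here states strand, feature type, multimapping or annotation release. The authors' deposited lists of differential genes give a log2 fold change with its error, a p-value, a Wald score and a mean signal in normalized counts, per the file headers, and were used only for which genes they list.

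After filterByExpr and TMM scaling, all 6 libraries entered 1 fit of edgeR 4.0.16 (R 4.3.3, quasi-likelihood) with a coefficient per group. The F test was two-sided, adjusted by Benjamini-Hochberg over 23133 genes, threshold 0.05. CPM are TMM-scaled over tested genes, except those of the cell type markers, which are scaled over all assigned counts. The standard error is the log2 fold change divided by the root of F, and 95% intervals, not adjusted for their number, use the fit's degrees of freedom. A count of 0 allows up to 3 counts, counting error only. Of 67051 identifiers, 8501 stayed without a symbol. The fit was tested on simulated data with planted differences of 1.5-fold or more and the same spread setting for every gene. That test does not show the power to call differences as small as those of the members. The members, lists, tests and naming rule (the 10 members with the smallest p in each comparison, at least 1 per role, and 4 other pathway genes) were chosen with earlier results of these data known. Alternatives used DESeq2 1.42.0 and limma 3.58.1.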

Additional observations from a re-analysis of the deposited data

Results flagged for a closer look

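TBRG4 was picked out because both of its 0.5 h libraries lay above both controls and both 24 h libraries below them. A gene picked by this rule differs between 24 h and 0.5 h by the choice itself, so the values below are no independent support. The share of all tested genes that meet the rule was not counted. The direct difference, 24 h against 0.5 h, was -0.40 ± 0.10 on the log2 scale, and it did not pass the test by edgeR (adjusted p = 0.754), whereas it passed with the replicate number as a block (adjusted p = 0.00892). The groups held 2 libraries each, so no library could be tested as an outlier.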

How the results depend on the processing

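The named members kept their direction and their side of the threshold in 120 of 120 values over the alternatives at 0.5 h, 119 of 120 at 24 h and 119 of 120 for 24 h against 0.5 h. The exception in both was TBRG4 in the fit with a replicate block, the replicate number as a term, at -0.29 (edgeR, adjusted p = 0.0475) and -0.40 (adjusted p = 0.00892), so that 1 member was called in each. The named members were the 10 with the smallest p in each comparison of the main fit of the same libraries. Their direction was thus largely fixed by that choice. The alternatives reuse the same libraries, so the tallies are not independent support. With the replicate block 15 genes were called higher and 42 lower at 0.5 h, 301 and 384 at 24 h, and 116 and 296 for 24 h against 0.5 h. Same-numbered libraries deviated together over all genes, with correlations of 0.328 (control with 0.5 h), 0.293 (control with 24 h) and 0.312 (0.5 h with 24 h). Over the 33 members the same correlations were higher, at 0.434, 0.617 and 0.464. The labels do not say that a number marks a batch. Without the filter on low counts 20 genes were called higher and 46 lower at 0.5 h, 130 and 115 at 24 h, and 29 and 44 for 24 h against 0.5 h, and members apart from control at 0.5 h numbered 10 higher and 1 lower, beside 12.9% and 13.7% of all tested genes. Unadjusted p under 0.05 was reached with the block by 3, 5 and 10 members in the 3 comparisons. The share of all tested genes at that level with the block was not counted, so these numbers are not read as a trait of the members. DESeq2 called 13 genes higher at 24 h, and upper quartile scaling left 4 members apart and higher at 24 h, beside 20.2% of all tested genes. With 1 library left out, genes called lower ran from 9 (without 0.5 h replicate 1) to 15 at 0.5 h, and at 24 h from 8 (without control replicate 1; 10 without either 24 h library) to 12. Genes called higher at 24 h ran from 0 to 1. Members whose groups did not overlap ran from 12 to 17 higher (29.3% to 35% of all tested genes) and 6 to 8 lower (29.2% to 36.2%) at 0.5 h. At 24 h they ran from 4 to 11 higher (32.6% to 36.6%) and from 16 to 21 lower (31.9% to 37.4%). For 24 h against 0.5 h they ran from 3 to 5 higher (33.7% to 35.6%) and from 22 to 25 lower (33.6% to 34.6%). The shares over all tested genes rose because fewer libraries overlap less often. A group with 1 library left is assumed to vary like the others. Depth limits HSD17B10 most, with 49 counts in its lowest library.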
